A study of Homo sapiens with 11 samples.

Results

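The genes described here are 10 of the 61464 genes in the count table, chosen by name for what they do with iron: the ferritin chains FTH1 and FTL, the heme oxygenase HMOX1, the transporters and receptor TFRC, SLC11A2, STEAP3 and SLC40A1, the ferritin receptor NCOA4, and the iron sensors ACO1 and IREB2. All 10 were found and all 10 had enough counts to be tested. They were measured in HCT116, an established human colorectal carcinoma line labelled as epithelial cells with a ras mutation. Cells were kept for 48 h with GTEA1 or GTEA7, which are triterpenoid extracts of the bracket fungus Ganoderma, or with DMSO, the solvent, as control. There were 3 DMSO, 4 GTEA1 and 4 GTEA7 libraries of polyadenylated RNA, all of this 1 line and all labelled as batch 1. The labels give no dose, and nothing says whether the libraries came from separate cultures, so p-values measure the spread between libraries, which may be technical.

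A cell takes up iron bound to transferrin through the transferrin receptor, reduces it inside endosomes, moves it into the cytosol and stores what it does not use inside ferritin, a hollow shell of heavy (FTH1) and light (FTL) chains. Heme oxygenase 1 opens the heme ring and sets its iron free, and ferroportin (SLC40A1) carries iron out of the cell. The proteins made from ACO1 and IREB2, known as IRP1 and IRP2, bind hairpins in mRNAs called iron-responsive elements when iron is scarce: a hairpin before the coding sequence then blocks translation, and hairpins after it shield the mRNA from breakdown. Control through these hairpins at the 5′ end acts on protein and would not show in counts of mRNA. Transcription of FTH1, FTL and HMOX1 is also known to respond to oxidative stress through NRF2 and its opponent BACH1.

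The hairpins are shown here because their place before or after the coding sequence bears on how an mRNA can be controlled. The rule searched was C, then 5 bases, then the loop CAGTGN, then 5 bases that pair with the first 5 (Watson-Crick or G-U), on the sense strand of GENCODE v29 transcripts, whose coordinates are on GRCh38. In capitals are the unpaired C, both arms of the stem and the loop. Each site lies within 1 exon and is written 5′ to 3′ as DNA on the strand of its gene.
FTH1 5′ UTR, chr11:61967573-61967602, minus strand: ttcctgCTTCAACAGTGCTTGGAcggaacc
FTL 5′ UTR, chr19:48965335-48965364, plus strand: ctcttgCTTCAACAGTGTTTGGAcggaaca
SLC40A1 5′ UTR, chr2:189580660-189580689, minus strand: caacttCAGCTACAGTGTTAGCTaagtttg
TFRC 3′ UTR, chr3:196050978-196051007, minus strand: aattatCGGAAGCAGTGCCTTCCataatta
TFRC 3′ UTR, chr3:196050574-196050603, minus strand: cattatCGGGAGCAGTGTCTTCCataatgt
TFRC 3′ UTR, chr3:196050509-196050538, minus strand: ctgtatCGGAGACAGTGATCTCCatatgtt
TFRC 3′ UTR, chr3:196050462-196050491, minus strand: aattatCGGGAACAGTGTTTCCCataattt
By this rule 3 of the genes had a match in the 5′ UTR, and TFRC had 4 in its 3′ UTR. Among all 19922 coding genes, 37 (0.19%) had a match in the 5′ UTR and 164 (0.82%) in the 3′ UTR. HMOX1, SLC11A2, NCOA4, ACO1, IREB2 and STEAP3 had none, which says only that this pattern is not in the UTRs searched. An element with a bulged or less fully paired stem would be missed, so these genes are not shown to lie outside such control. A match is a pattern of letters and was not measured as a binding site.

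Total counts were 13866350 to 17431515 per library in DMSO, 13742326 to 16433111 in GTEA1 and 14955685 to 19304211 in GTEA7. Levels are given as CPM, counts relative to library size times its TMM factor. Errors after ± are SDs of levels over 3 DMSO or 4 extract libraries, and standard errors of log2 fold changes. Adjusted p-values are from the quasi-likelihood test of edgeR with Benjamini-Hochberg adjustment over the 17963 genes tested, and a gene passed under 0.05. The summed level of 7 colon epithelial markers was 1810 to 1910 CPM in DMSO, 1740 to 1800 in GTEA1 and 1720 to 1790 in GTEA7. Most of the sum is KRT8, and VIL1 of the brush border was near 0 (0.155 ± 0.106 CPM in DMSO). The 6 tested epithelial markers went both ways in GTEA1, EPCAM (1.54-fold) and CDH1 (1.12-fold) rising and KRT20 (3.38-fold), CDX2 (1.48-fold), KRT18 (1.21-fold) and KRT8 (1.19-fold) falling. In GTEA7 EPCAM rose and KRT8 and KRT18 fell.

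Markers of other cell types were low, with 1 exception. HBA1, HBA2, HBB, PTPRC, CD163, CD68, DCN and CDH5 each averaged under 0.1 CPM in every group, as did COL1A2 and HAMP outside GTEA1, where they averaged 0.192 and 0.125 CPM. The exception was the collagen gene COL1A1, at 51.7, 40.8 and 39.5 CPM in DMSO, GTEA1 and GTEA7, which fell with both extracts. The summed hepatocyte markers, mostly the transferrin gene TF, were at 0.964 to 1.51 CPM in DMSO, 3.67 to 4.62 in GTEA1 and 1.53 to 1.90 in GTEA7, and TF rose 3.44-fold in GTEA1. The summed erythroid markers, mostly ALAS2, were at 0.62 to 0.997 CPM in DMSO, 1.53 to 2.35 in GTEA1 and 0.471 to 1.38 in GTEA7, and ALAS2 rose 2.23-fold in GTEA1. Sums of endothelial markers (at most 2.62 CPM) and of macrophage and leukocyte markers (at most 1.12 CPM) overlapped between DMSO and each extract. The part of such cells in the results was not tested. Over a pool of cells, more cells expressing a gene and more RNA per cell cannot be told apart.

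In GTEA1, 5 of the 10 genes rose and 5 fell. FTH1, FTL and HMOX1 rose most, by 10.4-fold, 8.22-fold and 13.6-fold; TFRC and SLC11A2 rose by 1.49-fold and 1.46-fold. SLC40A1, NCOA4, STEAP3, ACO1 and IREB2 fell, by at most 1.99-fold. So the genes of storage and heme breakdown and the uptake genes TFRC and SLC11A2 were higher, and the exporter, the ferritin receptor, the endosomal reductase and both sensors were lower. Passing the test was common here: 71.8% of all genes did, 35.6% higher and 36.2% lower, so a count of 10 of 10 stands little above the background. A rise of at least 2-fold was seen in 3 of the 10, against 8.56% of all genes. The median log2 fold change of the 10 was 0.20, against -0.008 for all genes.

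In GTEA7, 6 of the 10 rose and none fell. FTL rose 1.88-fold, FTH1 1.56-fold, TFRC 1.55-fold, HMOX1 1.49-fold, SLC11A2 1.18-fold and NCOA4 1.11-fold. Of all genes, 22.5% passed, 12% higher and 10.4% lower. The share of higher calls among the 10 was thus above the background, but the genes were chosen with results of these data known, and the share was not tested. No member reached 2-fold, as did 0.295% of all genes. The median was 0.19, against -0.009 for all genes. Both extracts were compared with the same 3 DMSO libraries, so their changes are set side by side and not correlated.

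Set against each other, the extracts differed in 9 of the 10 genes, where 72.7% of all genes differed, 36.2% higher and 36.4% lower. FTH1, FTL, HMOX1 and SLC11A2 were lower in GTEA7 than in GTEA1, and SLC40A1, NCOA4, ACO1, STEAP3 and IREB2 were higher. At least 2-fold lower were 3 of the 10 (FTH1, FTL and HMOX1), against 8.62% of all genes, and at least 2-fold higher was SLC40A1, against 11.2%. TFRC did not pass, and the median of the 10 was 0.11, against 0.000 for all genes. Scaling by library size alone moved the median of all genes to -0.166 in GTEA1 and -0.059 in GTEA7 against DMSO, and to 0.108 between the extracts. It turned the calls from 6390 higher and 6505 lower into 4836 and 8173 in GTEA1, from 2159 and 1877 into 1258 and 2949 in GTEA7, and from 6510 and 6546 into 7651 and 5459 between the extracts. The members that passed kept their direction and their call under it.

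**Figure D1:**
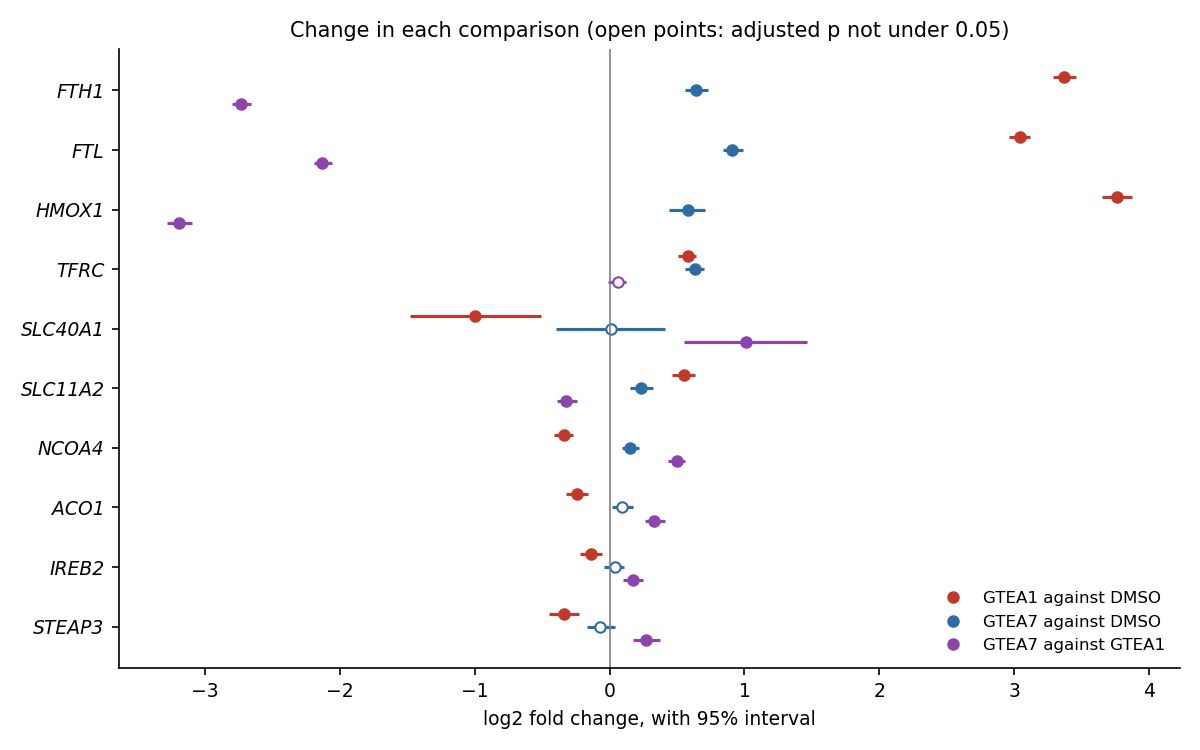
Log2 fold change of each of the 10 genes (horizontal axis) with its 95% interval, for GTEA1 against DMSO, GTEA7 against DMSO and GTEA7 against GTEA1; open points had an adjusted p of 0.05 or more. FTH1, FTL and HMOX1 lie at 3.04 to 3.76 in GTEA1 and at 0.58 to 0.91 in GTEA7, while the GTEA1 and GTEA7 points of TFRC lie together at 0.58 and 0.63.

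The 2 ferritin genes rose with both extracts, and FTL had the more counts. FTH1 (ENSG00000167996), the heavy chain with the ferroxidase activity that loads iron, stood at 92, 90 and 92 CPM in the DMSO libraries. It was at 928, 971, 909 and 978 CPM in GTEA1 and at 151, 142, 138 and 139 CPM in GTEA7. No library of one group overlapped another group, and the order was DMSO, GTEA7, GTEA1. The log2 fold change was 3.37 ± 0.04 in GTEA1 (edgeR adjusted p = 5.1e-50) and 0.64 ± 0.04 in GTEA7 (edgeR adjusted p = 2.9e-18). Between the extracts it was -2.73 ± 0.03 for GTEA7 against GTEA1 (edgeR adjusted p = 3.3e-49).

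FTL (ENSG00000087086), the light chain that helps the mineral core form, was at 521, 551 and 532 CPM in DMSO. The GTEA1 libraries held 4310, 4370, 4510 and 4400 CPM and the GTEA7 libraries 979, 1050, 1010 and 985 CPM. Here too the groups did not overlap, and GTEA7 lay between DMSO and GTEA1. FTL changed by 3.04 ± 0.04 in GTEA1 (edgeR adjusted p = 9.8e-49), by 0.91 ± 0.04 in GTEA7 (edgeR adjusted p = 4.4e-26) and by -2.13 ± 0.03 between the extracts (edgeR adjusted p = 4.6e-45). Together FTH1 and FTL, without their pseudogene rows, took 0.066% ± 0.00197 of all counts in DMSO, 0.505% ± 0.00535 in GTEA1 and 0.117% ± 0.00263 in GTEA7.

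In the counts of these libraries the chains did not move in equal measure. Within each library, scaling cancels from the ratio of FTL to FTH1 counts, which was 5.67, 6.12 and 5.78 in DMSO. In GTEA1 it was lower, at 4.64, 4.50, 4.96 and 4.50, and in GTEA7 higher, at 6.48, 7.41, 7.32 and 7.09. The 3 groups did not overlap. In a two-sided exact permutation test over libraries p was 0.0571 for each extract against DMSO, the smallest that 3 against 4 libraries allow, and 0.0286 between the extracts, the smallest for 4 against 4. Adjusted over the 6 ratio and share tests made, each exact p of the ratio became 0.114. With so few libraries no outcome could have passed under 0.05. The smallest p of 0.0571 already exceeds it, and the adjustment lifts 0.0286 above it too. The test therefore cannot decide whether the ratio differed, and the values are a description of these libraries. In log2 units the mean ratio differed from DMSO by -0.33 in GTEA1 and by 0.27 in GTEA7, and GTEA7 exceeded GTEA1 by 0.60.

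**Figure D2:**
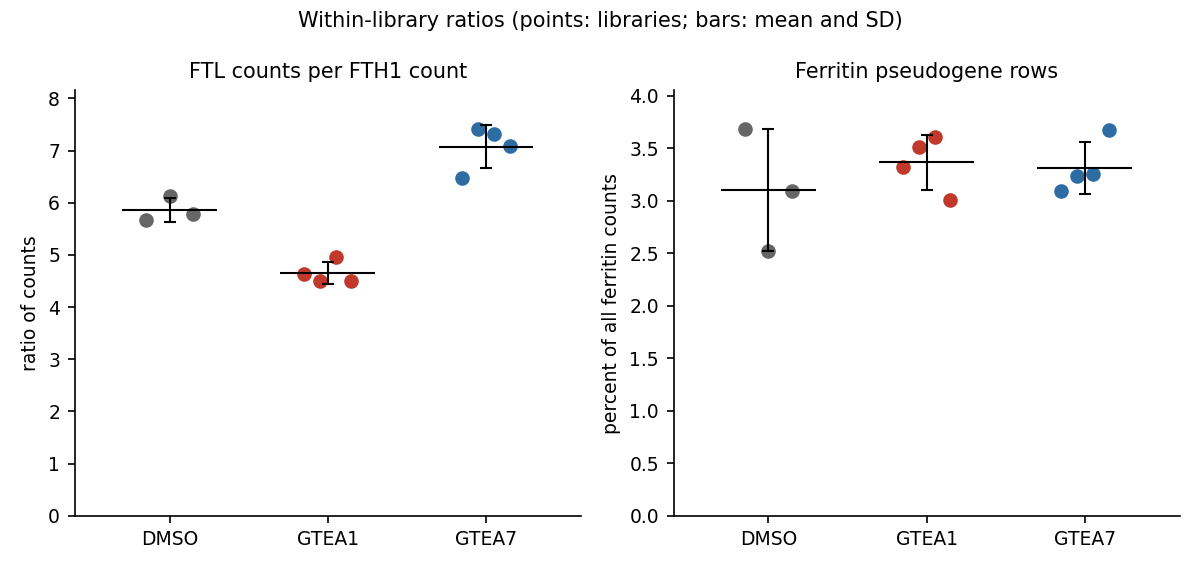
Left, FTL counts per FTH1 count in each library (points) with the mean and SD (bars); right, the percent of all ferritin counts that lie in pseudogene rows. The ratio was 5.67 to 6.12 in DMSO, 4.50 to 4.96 in GTEA1 and 6.48 to 7.41 in GTEA7, whereas the pseudogene share overlapped between the groups.

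Ferritin has many processed pseudogenes, copies of the mRNA without introns, and the table holds 41 rows named as such, 25 of them with a count. Of all 50-base windows of the FTH1 transcript, 40.4% occur unchanged in a pseudogene, and of the FTL transcript 18.3%, so short reads cannot always be placed on 1 copy. The pseudogene rows held 3.10% ± 0.58 of ferritin counts in DMSO, 3.36% ± 0.264 in GTEA1 and 3.31% ± 0.25 in GTEA7. In the two-sided exact permutation test p was 0.514 and 0.571 against DMSO and 0.8 between the extracts (0.686, 0.686 and 0.8 adjusted over the 6 tests). The share of FTH1 family counts in FTH1P rows was 14.9% ± 2.45, 14.3% ± 1.41 and 18.1% ± 1.61 in DMSO, GTEA1 and GTEA7. For the FTL family it was under 1% in every library.

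Only 12 pseudogene rows passed the filter on low counts, several of them through their counts in GTEA1, so their calls are a description of those rows. All 12 were higher in GTEA1, as were 35.6% of all genes. Their median log2 fold change was 3.30, close to FTH1 and FTL themselves. The most abundant was FTH1P20, at 4.44 CPM in DMSO, 42.5 in GTEA1 and 8.98 in GTEA7, with changes of 3.27 ± 0.09 and 1.03 ± 0.12. FTH1P8 changed by 3.55 ± 0.16 and 1.15 ± 0.21, FTH1P7 by 3.51 ± 0.11 and 1.01 ± 0.14, and FTH1P11 by 3.33 ± 0.15 and 1.02 ± 0.20. FTH1P16 (3.12 ± 0.17 in GTEA1, 0.69 ± 0.24 in GTEA7) and FTLP3 (3.10 ± 0.11 and 1.18 ± 0.14) were the others that passed in both extracts. The GTEA7 call of FTH1P16 was lost without any 1 of the DMSO libraries or without GTEA7 replicate 3 or 4, at 0.58 to 0.75, and with limma-voom (0.66).

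In GTEA7, 6 of the 12 passed, all higher, where 12% of all genes were higher. FTH1P10, FTH1P5 and FTLP2 changed by 3.51 ± 0.47, 3.85 ± 0.39 and 3.53 ± 0.37 in GTEA1, while their GTEA7 values of 1.32, 1.08 and 0.96 did not pass. FTH1P23 (3.19 ± 0.23), FTH1P3 (2.81 ± 0.37) and FTH1P12 (2.48 ± 0.37) likewise passed in GTEA1 alone, with 0.82, 1.13 and 0.26 in GTEA7. FTH1P23 passed in GTEA7 without GTEA7 replicate 4 (0.89), and FTH1P3 without DMSO replicate 1 (1.88) and with limma-voom (1.22). Not every row followed: FTH1P1, of whose 50-base windows 3.7% match FTH1, averaged 0.255 CPM in DMSO, 0.235 in GTEA1 and 0.245 in GTEA7, and FTLP12 0.453, 0.299 and 0.468 CPM. These last rows had too few counts to be tested and were picked after their values were seen. Adding all pseudogene counts to their parents gave FTH1 changes of 3.36 and 0.70 and FTL changes of 3.04 and 0.92. The log2 ratio of FTL to FTH1 was then 2.24 to 2.43 in DMSO, 1.95 to 2.07 in GTEA1 and 2.45 to 2.62 in GTEA7. DMSO and GTEA7 thus came close to overlap.

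**Figure D3:**
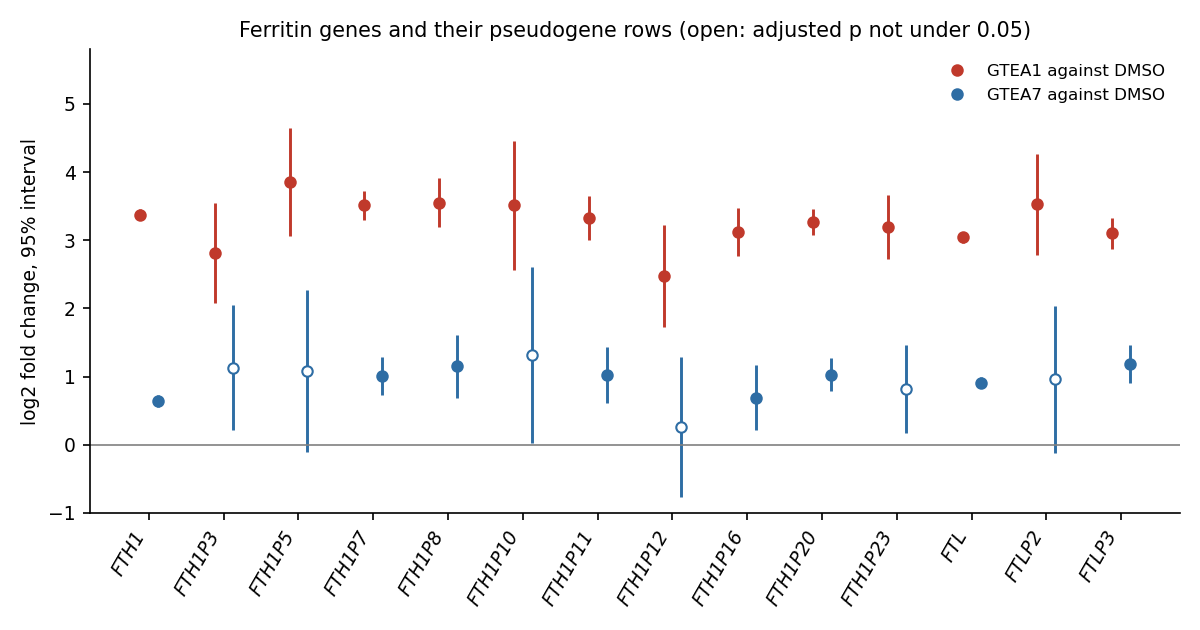
Log2 fold change with its 95% interval (vertical axis) of FTH1, FTL and the 12 tested pseudogene rows, for GTEA1 and GTEA7 against DMSO; open points had an adjusted p of 0.05 or more. In GTEA1 the pseudogene rows lie at 2.48 to 3.85 around the parents at 3.37 and 3.04, and in GTEA7 at 0.26 to 1.32 around 0.64 and 0.91.

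FTH1 also shares its locus with a gene on the opposite strand. BEST1 overlaps 62.4% of the annotated exon bases of FTH1, and the strand setting of the counting is not given in the sources used here. BEST1 averaged 0.162 ± 0.0447 CPM in DMSO, 2.67 ± 0.103 in GTEA1 and 0.204 ± 0.0378 in GTEA7, 176 counts in all against 68996 for FTH1. Reads of the pair cannot be told apart without strand, and the low BEST1 level bounds only what was assigned to it. No gene overlaps the exons of FTL. How many FTH1 reads were left uncounted is not known, which limits the level of FTH1 and its ratio to FTL.

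HMOX1 (ENSG00000100292), the inducible enzyme that opens heme into biliverdin, iron and carbon monoxide, had the largest change of the 10 in GTEA1. It stood at 15.1, 14.4 and 16.9 CPM in DMSO, at 203, 210, 201 and 222 CPM in GTEA1 and at 22.6, 23.7, 24 and 21.3 CPM in GTEA7. The lowest GTEA7 library lay above the highest DMSO library, and every GTEA1 library lay far above both. Its log2 fold change was 3.76 ± 0.05 in GTEA1 (edgeR adjusted p = 6.7e-47), 0.58 ± 0.07 in GTEA7 (edgeR adjusted p = 3.0e-09) and -3.19 ± 0.05 between the extracts (edgeR adjusted p = 3.8e-47). Of the 3 large risers HMOX1 had the highest estimate in GTEA1 and FTL the highest in GTEA7, an order that was not tested.

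TFRC (ENSG00000072274), the transferrin receptor, was the member on which the extracts came closest. Its DMSO libraries held 459, 455 and 465 CPM, the GTEA1 libraries 699, 681, 693 and 667 CPM and the GTEA7 libraries 693, 726, 740 and 689 CPM. Both extract groups lay wholly above DMSO and overlapped each other. The change was 0.58 ± 0.03 in GTEA1 and 0.63 ± 0.03 in GTEA7 (edgeR adjusted p = 1.2e-20 for both). GTEA7 exceeded GTEA1 by 0.06 ± 0.03, with a 95% interval of -0.01 to 0.12 (edgeR adjusted p = 0.11). That difference passed under 3 alternatives, at 0.16 with library size as the only scaling, where the median gene was at 0.108, and at 0.07 and 0.08 without GTEA1 replicate 1 and without GTEA7 replicate 4. So ferritin mRNA and transferrin receptor mRNA were both higher than in DMSO with either extract.

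SLC11A2 (ENSG00000110911), known as DMT1, moves ferrous iron across the endosomal and plasma membranes. It was at 74, 69.2 and 71.3 CPM in DMSO, at 101, 104, 106 and 107 CPM in GTEA1 and at 88.3, 84.1, 82.3 and 81.2 CPM in GTEA7. The groups did not overlap, with GTEA7 in the middle. SLC11A2 changed by 0.55 ± 0.04 in GTEA1 (edgeR adjusted p = 1.1e-16), by 0.23 ± 0.04 in GTEA7 (edgeR adjusted p = 2.8e-05) and by -0.32 ± 0.04 between them (edgeR adjusted p = 2.0e-10), the last being -0.21 with library size as the only scaling.

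STEAP3 (ENSG00000115107), the endosomal reductase that turns ferric into ferrous iron for SLC11A2, went the other way in GTEA1. It measured 43, 47.1 and 43.6 CPM in DMSO, 36.8, 35.3, 37.3 and 32.2 CPM in GTEA1, and 42.3, 43.8, 42.1 and 42 CPM in GTEA7. Every GTEA1 library lay below all others, while GTEA7 overlapped DMSO. It fell by 0.34 ± 0.05 on the log2 scale in GTEA1 (edgeR adjusted p = 3.3e-07), and its GTEA7 value was -0.07 ± 0.05, with a 95% interval of -0.17 to 0.04 (edgeR adjusted p = 0.39). Against GTEA1, GTEA7 was higher by 0.27 ± 0.05 (edgeR adjusted p = 6.6e-06). The antisense gene STEAP3-AS1 overlaps 11% of its exon bases.

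SLC40A1 (ENSG00000138449), ferroportin, the exporter of iron from the cell, was the rarest of the 10, with 305 counts in all libraries together. Its level was 2.46, 1.94 and 1.72 CPM in DMSO, 1.3, 1.03, 0.588 and 1.22 CPM in GTEA1, and 2.01, 1.99, 2.47 and 1.77 CPM in GTEA7. The GTEA1 libraries lay below every other library, and GTEA7 overlapped DMSO throughout. SLC40A1 fell by 1.00 ± 0.24 in GTEA1 (edgeR adjusted p = 2.8e-04). In GTEA7 the change was 0.01 ± 0.20, with an interval of -0.40 to 0.41 that leaves sizeable changes in either direction undetected at this depth. GTEA7 exceeded GTEA1 by 1.01 ± 0.23 (edgeR adjusted p = 9.6e-05). Of the 3 mRNAs with a 5′ UTR match, this one was thus lower in GTEA1, where FTH1 and FTL were higher.

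NCOA4 (ENSG00000266412) delivers ferritin to lysosomes, where its iron is released. It moved in opposite directions with the 2 extracts. The DMSO libraries held 195, 200 and 190 CPM, the GTEA1 libraries 156, 153, 155 and 152 CPM, and the GTEA7 libraries 214, 221, 216 and 219 CPM, with no overlap between any groups. NCOA4 fell by 0.34 ± 0.03 in GTEA1 (edgeR adjusted p = 2.2e-12) and rose by 0.15 ± 0.03 in GTEA7 (edgeR adjusted p = 4.9e-04). The difference between the extracts was 0.50 ± 0.03 (edgeR adjusted p = 2.7e-19).

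The sensors changed little. ACO1 (ENSG00000122729), an aconitase that becomes IRP1 when it loses its iron-sulfur cluster, was at 99.8, 104 and 107 CPM in DMSO, at 89.6, 87.8, 89 and 84.1 CPM in GTEA1 and at 109, 109, 112 and 111 CPM in GTEA7. The 3 groups did not overlap, although the highest DMSO and lowest GTEA7 libraries were close. It fell by 0.24 ± 0.04 in GTEA1 (edgeR adjusted p = 6.2e-07). In GTEA7 the value was 0.09 ± 0.04 (edgeR adjusted p = 0.069), which passed with DESeq2 size factors (adjusted p = 0.044) and with only the compared groups in the fit (adjusted p = 0.038). GTEA7 was higher than GTEA1 by 0.33 ± 0.04 (edgeR adjusted p = 1.9e-11). Library size as the only scaling, which shifted the median gene as given above, put the GTEA1 change at -0.40.

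IREB2 (ENSG00000136381), whose protein IRP2 is broken down when iron is plentiful, had the smallest change of the 10 in GTEA1. It was at 132, 140 and 130 CPM in DMSO, at 123, 120, 119 and 124 CPM in GTEA1, and at 136, 135, 145 and 133 CPM in GTEA7. GTEA1 lay below the others, and GTEA7 overlapped DMSO. IREB2 fell by 0.14 ± 0.04 in GTEA1 (edgeR adjusted p = 0.0014), and in GTEA7 its value was 0.04 ± 0.04, with a 95% interval of -0.04 to 0.11 (edgeR adjusted p = 0.56). It was higher in GTEA7 than in GTEA1 by 0.17 ± 0.04 (edgeR adjusted p = 2.7e-05). When only library size was scaled for, the GTEA1 change was -0.30 and the difference between the extracts 0.28.

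**Figure D4:**
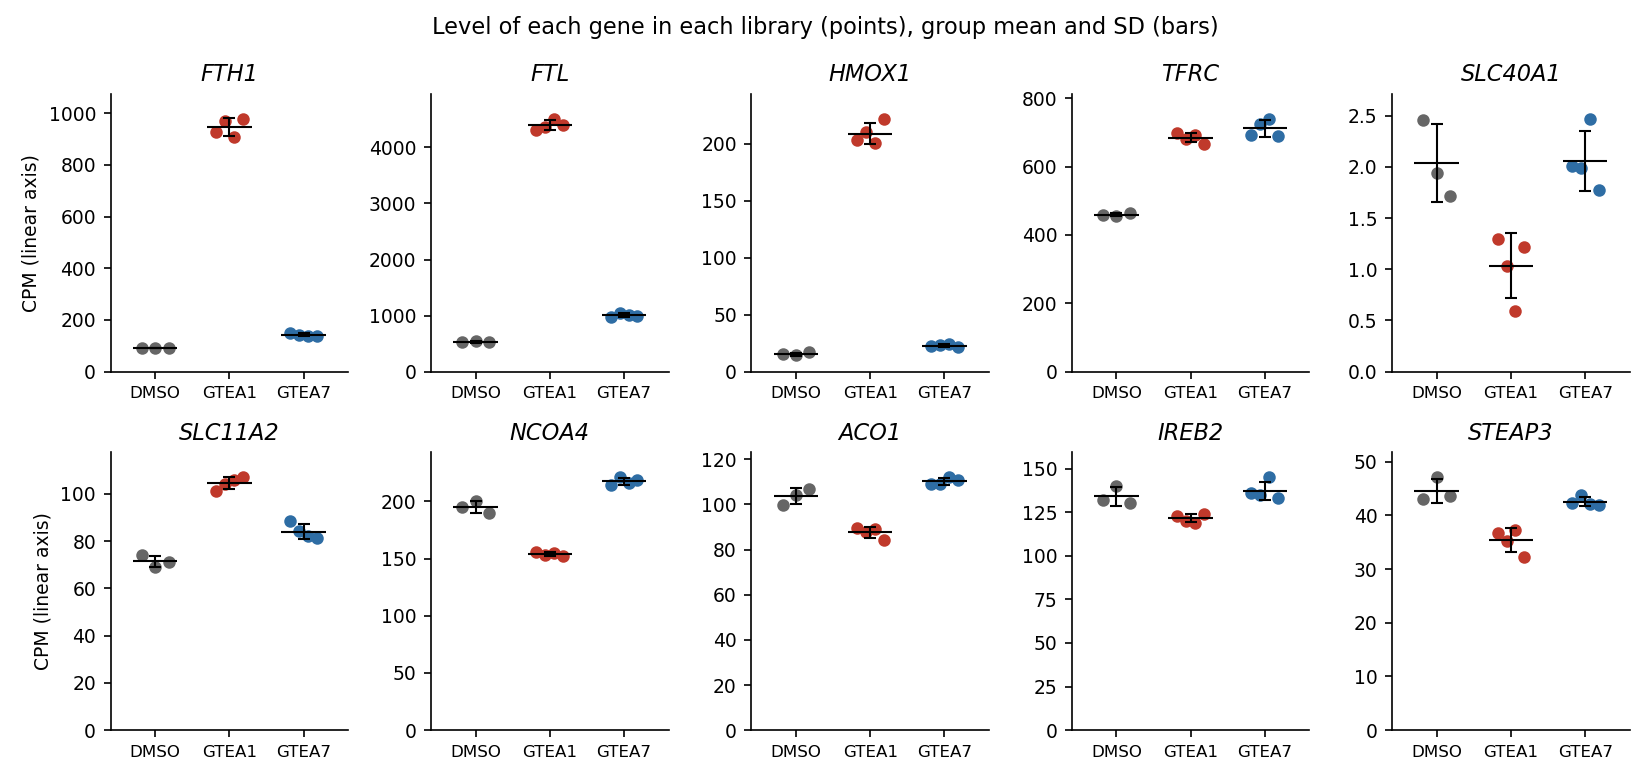
Level of each gene in CPM (vertical axis, linear, from 0, a scale of its own per gene) in each library (points), with the group mean and SD (bars). The GTEA1 libraries stand apart from DMSO for all 10 genes, and the GTEA7 libraries overlap DMSO for SLC40A1, IREB2 and STEAP3.

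Libraries that do not overlap were counted as well. In GTEA1 all 10 genes were free of overlap with DMSO, as were 68.7% of all genes; 5 were higher, against 33.9%, and 5 lower, against 34.8%. In GTEA7 it was 7 of 10, all higher, against 30.5% of all genes without overlap and 15.6% without overlap and higher. Between the extracts it was 9 of 10, against 65.3% of all genes; 5 were higher in GTEA7, against 32.8%, and 4 lower, against 32.5%.

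Levels of different genes can be compared only per length, and the length that applies is uncertain because the annotation is not stated. Reads left uncounted at the BEST1 overlap or at pseudogene copies may also differ between FTH1 and the other genes, which was not tested. With the longest annotated transcript of each gene, FTL had the highest CPM per kb in every group, at 609 ± 17 in DMSO, 5010 ± 96.4 in GTEA1 and 1150 ± 38.8 in GTEA7. TFRC came next in DMSO, at 90 ± 0.966 CPM per kb, ahead of FTH1 at 74.3 ± 0.928. In GTEA1 FTH1, at 770 ± 27.2 CPM per kb, had passed TFRC at 134 ± 2.72. With the median transcript length TFRC instead led in DMSO, at 821 ± 8.81 CPM per kb, since many of its annotated transcripts are short. SLC40A1 was the lowest of the 10 in every group by either length.

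For 3 of the genes, those with the nearest pattern among all tested genes were sought, by the distance over the 11 libraries between log2(CPM + 0.5) values taken relative to the DMSO mean. Nearest to FTH1 were COL6A3 (4.03 in GTEA1 and 0.81 in GTEA7, as log2 fold changes), CPA4 (3.59 and 0.51) and FOSL1 (3.39 and 0.35). COL6A3 averaged only 0.56 CPM in DMSO, where the added 0.5 shrinks its change in the distance. Nearest to HMOX1 were TRIB3 (3.75 and 0.34), CPA4 and ATF3 (3.61 and 0.35). TFRC had SREBF2 (0.67 and 0.63), SC5D (0.59 and 0.74) and FADS1 (0.47 and 0.70) as its nearest genes, at distances of 0.255 to 0.28, where those of FTH1 and HMOX1 were 0.53 to 0.701.

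Around the 10 genes, 93 other genes of iron and heme handling were listed by role, and 86 had enough counts to be tested. In GTEA1, 34 rose, 34 fell and 18 did not pass, with a median of -0.06; of all genes 71.8% passed there, 35.6% higher and 36.2% lower, so the list was close to the background. In GTEA7, 28 rose, 5 fell and 53 did not pass, with a median of 0.09, where 12% of all genes were higher and 10.4% lower. The counts of the lists below are to be read against these same shares and were not tested against them. Scaling by library size alone made this 27 higher and 47 lower in GTEA1, and 18 and 11 in GTEA7. Changes in GTEA7 were mostly under 0.5 on the log2 scale. That scaling also ended the GTEA7 calls of LCN2, SKP1, UROS, BACH1, PGRMC1, PGRMC2, FLVCR1, CIAPIN1 and GLRX3 and the GTEA1 calls of FECH, SLC46A1 and CIAO3, all named below.

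Among 13 tested genes of iron uptake and reduction, 6 rose and 6 fell in GTEA1, and 5 rose and 1 fell in GTEA7. SLC39A14, a carrier of iron not bound to transferrin, rose in both (0.87 ± 0.03 and 0.16 ± 0.03), whereas the related carrier SLC39A8 fell in GTEA1 by 1.43 ± 0.06 and was at 0.01 ± 0.05 in GTEA7. The STEAP family genes STEAP1 (0.50 ± 0.09 and 0.44 ± 0.09) and STEAP2 (0.61 ± 0.05 and 0.22 ± 0.05) rose with both extracts. CYBRD1, a ferric reductase of the cell surface, fell by 0.21 ± 0.05 in GTEA1 and rose by 0.19 ± 0.05 in GTEA7. LCN2, which binds iron through siderophores, rose from 0.394 to 6.54 CPM in GTEA1 (4.01 ± 0.23), and its GTEA7 value of 0.96 ± 0.35 passed narrowly (edgeR adjusted p = 0.044) and was lost under 10 alternatives, among them leaving out any 1 of the DMSO libraries or GTEA7 replicate 1 or 3 (0.79 to 1.15). Its receptor SLC22A17 rose by 0.42 ± 0.09 in GTEA1 and fell by 0.33 ± 0.09 in GTEA7, a call lost without DMSO replicate 1 or GTEA7 replicate 3 (-0.27 in each case).

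Of 7 tested genes of iron storage, export and systemic control, 3 rose and 4 fell in GTEA1 and 2 fell in GTEA7. PROM2, a membrane protein known for exporting ferritin in vesicles, fell in both, by 1.32 ± 0.10 and by 0.48 ± 0.09. In GTEA1 HEPH, the ferroxidase that works beside ferroportin, fell by 1.30 ± 0.34, ERFE by 0.63 ± 0.12 and BMP6 by 0.48 ± 0.15, the last pair being regulators of hepcidin. TMPRSS6 rose by 0.56 ± 0.13. The iron chaperones PCBP1 (0.79 ± 0.24) and PCBP2 (0.09 ± 0.04) also passed in GTEA1, the latter at an edgeR adjusted p of 0.049 and with a sign that turned to -0.07 with library size as the only scaling; it was also lost with either other low-count filter, with the replicate block, with the DESeq2 Wald test, with only the compared groups in the fit, and without DMSO replicate 1 or 2 or GTEA1 replicate 1 or 3 (0.05 to 0.10). PCBP2 fell by 0.18 ± 0.04 in GTEA7. Antisense or overlapping genes cover 52.2% of the exon bases of PCBP1 and 32.7% of those of PCBP2.

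Of the 8 genes of iron sensing, 3 rose and 5 fell in GTEA1, where 71.8% of all genes passed, and 4 rose in GTEA7, where 12% of all genes did. FBXL5, the iron-binding subunit of the ligase that marks IRP2 for breakdown, rose from 34.2 to 99 CPM in GTEA1 (1.53 ± 0.05) and to 41.1 CPM in GTEA7 (0.26 ± 0.05). The other subunits SKP1 and CUL1 fell in GTEA1, by 0.32 ± 0.04 and by 0.45 ± 0.04, and rose by 0.11 ± 0.04 and 0.17 ± 0.04 in GTEA7. The GTEA7 call of SKP1 was lost without DMSO replicate 1 or 2 or GTEA7 replicate 2 or 3 (0.08 to 0.12). HIF1A rose with both extracts (0.56 ± 0.04 and 0.44 ± 0.04) and EPAS1, whose mRNA is a known IRP target, in GTEA1 (0.70 ± 0.04). The iron-dependent prolyl hydroxylases EGLN3 and EGLN1 fell in GTEA1, by 2.12 ± 0.12 and by 0.62 ± 0.12, and HERC2 by 0.19 ± 0.04.

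**Figure D5:**
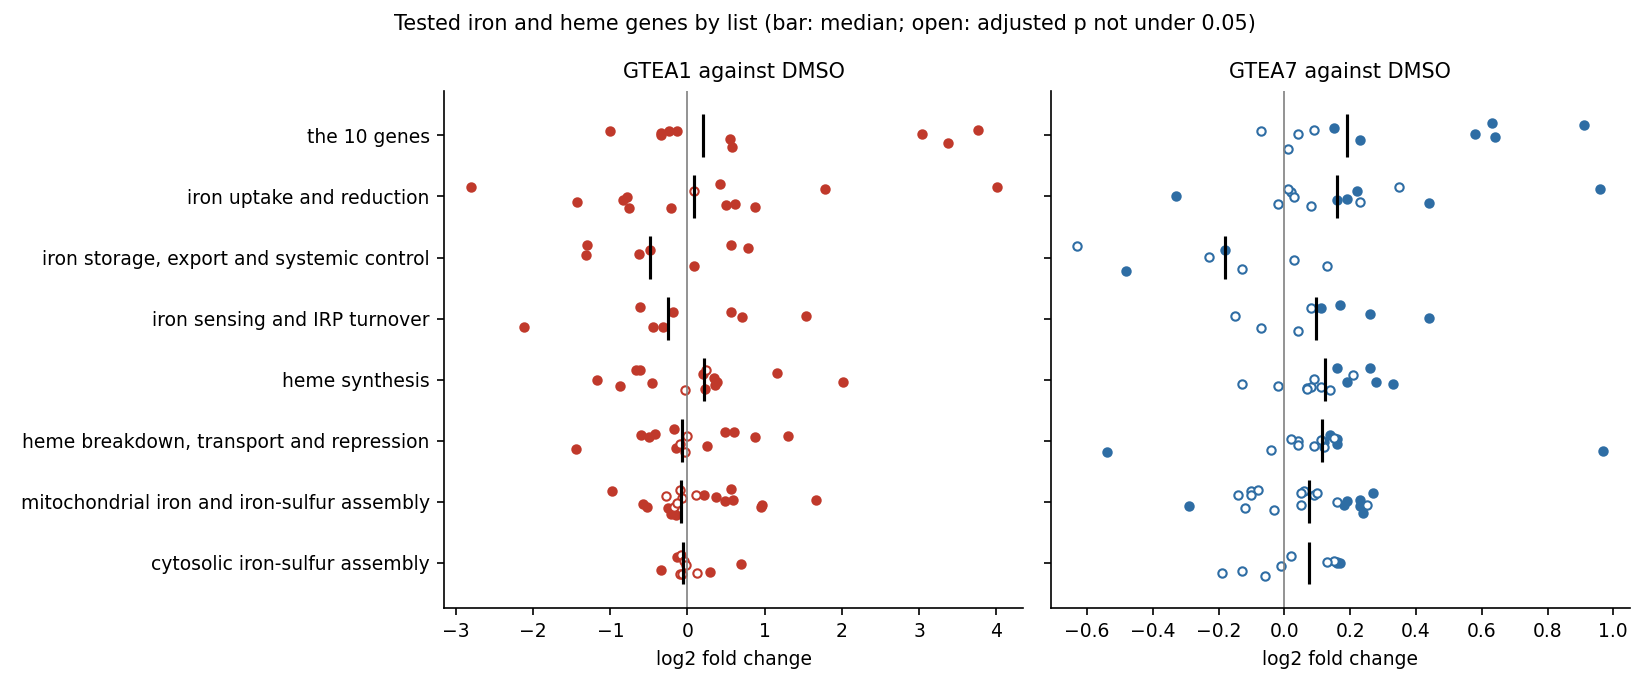
Log2 fold change (horizontal axis, scaled separately in each panel) of every tested gene, by list, for GTEA1 and GTEA7 against DMSO; bars are list medians and open points had an adjusted p of 0.05 or more. The medians lie between -0.48 and 0.21 in GTEA1 and between -0.18 and 0.19 in GTEA7, with FTH1, FTL and HMOX1 at the far right of the top row in GTEA1.

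Of 14 genes of heme synthesis, 7 rose and 5 fell in GTEA1, against 35.6% and 36.2% of all genes. ALAS1, the enzyme of its first and rate-limiting step, rose from 57.4 to 232 CPM in GTEA1 (2.02 ± 0.04) and to 69.5 CPM in GTEA7 (0.28 ± 0.04). Later steps were lower in GTEA1: CPOX fell by 1.17 ± 0.03, UROS by 0.67 ± 0.05, ALAD by 0.62 ± 0.06 and UROD by 0.46 ± 0.07, as did the mitochondrial transporter ABCB10 by 0.87 ± 0.07. FECH, which inserts iron into the ring, rose by 0.20 ± 0.05 in GTEA1 and by 0.33 ± 0.05 in GTEA7; its GTEA1 call was lost with library size as the only scaling. In GTEA7, 5 of 14 rose and none fell: FECH, ALAS1, CLPX (0.19 ± 0.04), ABCB10 (0.26 ± 0.06) and UROS (0.16 ± 0.04, lost without DMSO replicate 2, at 0.14).

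Of 14 genes of heme breakdown, transport and repression, 5 rose and 6 fell in GTEA1, and 5 rose and 1 fell in GTEA7. BLVRB, a biliverdin reductase, rose from 24.3 to 60.1 CPM in GTEA1 (1.30 ± 0.05), with 0.12 ± 0.06 in GTEA7. The other biliverdin reductase, BLVRA, did not pass in GTEA1 (-0.03 ± 0.08) or in GTEA7 (0.04 ± 0.07). The heme carrier SLC48A1 rose by 0.88 ± 0.07, HEBP2 by 0.60 ± 0.05 and SLC46A1 by 0.25 ± 0.11 in GTEA1. BACH1, the heme-sensing repressor of HMOX1 and the ferritin genes, rose by 0.48 ± 0.05 in GTEA1 and by 0.14 ± 0.05 in GTEA7 (edgeR adjusted p = 0.042). ABCG2, which exports heme and porphyrins, fell by 0.42 ± 0.15 in GTEA1 and rose by 0.97 ± 0.12 in GTEA7. PGRMC1 fell by 0.60 ± 0.05 and rose by 0.12 ± 0.04, PGRMC2 fell by 0.15 ± 0.04 and rose by 0.16 ± 0.04, and the heme exporter FLVCR1 fell by 0.17 ± 0.05 and rose by 0.16 ± 0.05, in GTEA1 and GTEA7. HPX, the heme carrier of plasma, fell by 0.50 ± 0.16 and by 0.54 ± 0.15. Several of these calls rested on single libraries. Without DMSO replicate 3, ABCG2 did not pass in GTEA1 (-0.30), nor did HPX (-0.47), PGRMC2 (0.12), FLVCR1 (0.14), BACH1 (0.11) or PGRMC1 (0.11) in GTEA7. BACH1 was also lost without DMSO replicate 1 or GTEA7 replicate 1, 2 or 3 (0.11 to 0.15), PGRMC1 without DMSO replicate 1 or 2 or GTEA7 replicate 2 or 3 (0.09 to 0.13) and FLVCR1 without DMSO replicate 2 (0.14). With the DESeq2 Wald test the GTEA7 call of BACH1 was lost too (0.15). The GTEA1 call of SLC46A1 was lost without DMSO replicate 1 or GTEA1 replicate 1 or 2 (0.14 to 0.24), and antisense genes overlap 61.5% of its exon bases. That call was also lost with no low-count filter (0.26), with the DESeq2 Wald test (0.25) and with only the compared groups in the fit (0.24).

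Of 20 tested genes of mitochondrial iron and iron-sulfur assembly, 8 rose and 6 fell in GTEA1, and 6 rose and 1 fell in GTEA7. ISCU, the scaffold on which clusters form, rose from 47.5 to 150 CPM in GTEA1 (1.66 ± 0.04) and to 53.6 CPM in GTEA7 (0.18 ± 0.05). Its chaperone HSPA9 rose by 0.95 ± 0.03 and 0.24 ± 0.03, and the mitochondrial iron importer SLC25A37 by 0.96 ± 0.04 in GTEA1. ISCA1 fell by 0.53 ± 0.06 in GTEA1 and rose by 0.23 ± 0.05 in GTEA7, and FDXR was the gene that fell in GTEA7, by 0.29 ± 0.05. The 10 tested genes of cytosolic assembly changed least, with 2 higher (CIAO2B, 0.69 ± 0.06, and CIAO3, 0.29 ± 0.08, which did not pass at 0.13 with library size as the only scaling) and 2 lower (NUBP2, by 0.34 ± 0.07, and MMS19, by 0.13 ± 0.04) in GTEA1. CIAO1 (0.17 ± 0.04), CIAPIN1 (0.16 ± 0.05) and GLRX3 (0.16 ± 0.05) rose in GTEA7, CIAPIN1 losing its call without DMSO replicate 1 or 2 or GTEA7 replicate 1 or 2 (0.14 to 0.16) and GLRX3 without DMSO replicate 1 or GTEA7 replicate 3 (0.11 and 0.12). GLRX3 also lost it with the DESeq2 Wald test (0.17).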

How the data were processed

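The authors deposited a table of raw counts, with genes in rows and the 11 libraries in columns. No column was left out, and the labels gave each library its group. The submitters' processing notes list HTSeq 0.5.4, SAMtools 0.1.18, DESeq 1.10.1, STAR, GATK and Picard, with no roles. Not given in the sources used here are the build, annotation, counting options and strand. Of the 61464 rows, 60624 carry Ensembl IDs, 60370 of which matched a symbol in a table of gene names. The other 840 rows took 0.727% of all counts.

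Genes were kept by filterByExpr of edgeR 4.0.16 (R 4.3.3), which left 17963. Libraries were scaled by TMM, 1 quasi-likelihood model (robust) was fitted to all 11, and F tests compared the groups, and p-values were adjusted by Benjamini-Hochberg, with 0.05 as the threshold. Standard errors were computed back from F. The method was tested on simulated data in which a small part of the genes changed, with the same spread for every gene. That test does not cover scaling where most genes change, as in GTEA1. Ratios within a library were compared by exact permutation tests over libraries. Hairpins and window matches came from GENCODE v29 transcripts.

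The 10 genes and all lists were chosen with earlier results of these data known. Named beside the 10 were all tested ferritin pseudogenes and, per list, the 3 genes with the smallest adjusted p against DMSO and all of those counted where 5 or fewer were. BLVRA was named as well, after its values were seen. Alternatives were DESeq2 size factors, library size only, no filter and at least 1 CPM in 3 libraries, a replicate block, only the compared groups, limma-voom 3.58.1, the Wald test of DESeq2 1.42.0, each library left out, pseudogenes added to their parents, and other transcript lengths, of which joined exons were added after seeing the data.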

Additional observations from a re-analysis of the deposited data

How the results depend on the processing

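The 25 calls on the 10 genes kept their direction and passed under every alternative run. Values that did not pass and changed sign were those of IREB2 (-0.02) and SLC40A1 (-0.04) in GTEA7 with library size as the only scaling, and of SLC40A1 in GTEA7 when 1 library was left out (-0.09 to 0.16 over those runs, with -0.03 without DMSO replicate 2, -0.09 without DMSO replicate 3 and -0.08 without GTEA7 replicate 3). Among other iron genes PCBP2 in GTEA1 turned to -0.07 with library size only, and the counts in GTEA7 moved from 28 higher and 5 lower to 18 and 11. The cause was not tested. Leaving out 1 library at a time, the difference in pseudogene share ran from -0.02 to 0.56 percentage points for GTEA1 against DMSO, from -0.08 to 0.50 for GTEA7 against DMSO and from -0.18 to 0.03 between the extracts (0.02 without GTEA7 replicate 1).

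No sign was seen that replicate numbers pair the libraries: deviations of those with the same number correlated at -0.058 to 0.037. Pairs with different numbers were not set beside them, so this cannot show that no culture or day was shared. With the replicate block the calls were 12725, 4087 and 13016, against 12895, 4036 and 13056 without it, and the counts among the 10 genes did not change. The block ended the calls of PCBP2 in GTEA1 (0.09) and LCN2 in GTEA7 (0.90) and changed no other call on a named gene. With few counts, SLC40A1 and the rarer pseudogenes had the widest intervals.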
